A study of Rattus norvegicus with 8 samples.

Results

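The genes described here carry messenger RNA from its first transcription to its translation: the proteins that bind and splice pre-mRNA, the RNA helicases, the elongation factor Supt5h, and the initiation and elongation factors of the ribosome with the kinases and binding proteins that hold them back. They were taken by a rule on the gene symbol: every probe set with a single gene symbol that begins with Hnrnp, Srsf, Snrp, Sf3, Eif, Eef, Ddx, Elavl or Pabp, together with Sfpq, Nono, Ptbp1, Ptbp2, Khdrbs1, Tra2b, Supt5h and U2af1. A probe set is the group of short oligonucleotides that measures a transcript; by the maker's naming, endings such as _s_at and _f_at mark those that may match more than 1 transcript. The rule found 100 probe sets of 57 genes among the 8799 probe sets of the array, and no probe set named for Nono, Ptbp2 or U2af1. The samples were E12.5 rat embryos. Heads of Pax6 homozygous embryos and of wild-type embryos were cut at the isthmus into a forebrain part, which kept the midbrain and the eye and nose primordia, and a hindbrain part, which kept the pharyngeal arches. Each of the 4 groups, which were Pax6 homozygous forebrain, wild-type forebrain, Pax6 homozygous hindbrain and wild-type hindbrain, was measured on 2 Affymetrix rat U34A arrays. The labels do not name the mutant allele, the strain, or how many embryos gave each RNA, and they do not state whether a group's 2 arrays hold RNA of different litters, so the p-values below measure the spread between these arrays, which may be technical.

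Pax6 is a paired-box transcription factor that patterns the forebrain, the hindbrain and the eye and keeps neural progenitors in their dividing state. Pre-mRNA is spliced by the spliceosome, whose small nuclear ribonucleoproteins (snRNPs) recognise the intron ends. SR proteins mostly promote the use of an exon, hnRNPs often repress it, and DEAD-box helicases use ATP to remodel the RNA and its proteins. Translation starts when initiation factors bring the cap of an mRNA and the initiator tRNA to the small ribosomal subunit, and it goes on with elongation factors that deliver tRNAs and move the ribosome along. In the developing brain, RNA-binding proteins of the Ptbp and Elavl families are known for switches of splicing and mRNA stability between progenitors and neurons.

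Transcription start sites are shown for the elongation factors because many mRNAs of the translation machinery are known to begin with a run of pyrimidines, through which mTOR signalling controls their translation. They are shown for Supt5h and Sfpq because a probe set of each had a small p between genotypes. After adjustment no member passed in the main fit, and the other probe sets of these genes did not show the same difference. Each window holds 30 bases before and 20 bases from the start of the RefSeq gene model in GRCr8, read 5′ to 3′ on the transcribed strand, and capitals mark a C followed by at least 6 letters that are C or T.
Eef1a1, chr8:88225050-88225099, minus strand: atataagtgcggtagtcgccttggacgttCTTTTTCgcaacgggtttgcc
Eef1g, chr1:215289785-215289834, plus strand: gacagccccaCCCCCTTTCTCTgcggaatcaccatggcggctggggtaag
Eef2, chr7:9189219-9189268, minus strand: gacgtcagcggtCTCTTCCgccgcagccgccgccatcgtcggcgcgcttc
Supt5h, chr1:92744426-92744475, minus strand: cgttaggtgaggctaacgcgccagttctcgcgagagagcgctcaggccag
Sfpq, chr5:144622503-144622552, plus strand: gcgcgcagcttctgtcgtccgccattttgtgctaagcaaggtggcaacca
Such a run was found in the windows of 4 of 4 elongation factor genes and in 8 of 18 windows of initiation factor genes, but in 1 of 11 windows of hnRNP genes. The run lies across the annotated start in Eef1a1, whereas in Eef1g it ends 8 bases and in Eef2 11 bases before that start, so that it is outside the annotated transcript. A run that ended at or past the start, whether across it or wholly after it, was found for 1 of the 4 elongation factor genes. It was found in 3 of 18 initiation factor windows and in 8.33% of the windows of all members, against 10.6% of all RefSeq promoters. A run anywhere in the window was present in 26.7% of the 60 windows of all member genes, against 22.3% of the 33469 windows of all RefSeq promoters. The median GC content of the 300 bases around the start was 61.0% for the members and 51.7% for all promoters, and the letters TATAAA, searched on both strands, were in 13.3% of the members' promoters and in 14.2% of all. The search for the run was set after windows of these genes had been seen, so its counts are a description, and no match says only that these letters are not in the window.

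The deposited intensities are linear and include negative values, which were 18.3 to 22.3% of each array. The level below which a value cannot be told from noise was taken as the size of the array's 5th percentile and lay between 243 and 620, and 89 to 91 of the 100 member probe sets were above it on any array. Arrays of the same group correlated with r between 0.899 and 0.947. The 3′ to 5′ ratio of the actin controls, which rises with RNA degradation, was 1.23 to 1.69, with the highest value on wild-type forebrain replicate 2, and that of the GAPDH controls was 1.14 to 1.27. The Pax6 probe set gave 1243 and 927 in Pax6 homozygous forebrain against 1197 and 636 in wild-type forebrain, and 1194 and 1111 in Pax6 homozygous hindbrain against 827 and 531 in wild-type hindbrain. Its levels overlap in the forebrain, and since the allele is not named they do not check the labels. Neural progenitor markers were mostly above noise in all parts: of 21 probe sets of 13 such markers, 0 to 3 a group were at or below the noise level. Among these markers, Fabp7 passed the test between genotypes, lower in Pax6 homozygous embryos in each region.

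Between Pax6 homozygous and wild-type embryos, no member passed the test of the main fit in the forebrain, in the hindbrain or over both regions. That fit has no block for the replicate number of the titles. With such a block, 3 of all tested probe sets passed over both regions. Of these 1 was a member, Supt5h rc_AA858586_at (adjusted p = 0.0296). Differences between genotypes were estimated on the log2 scale with limma over 5881 probe sets, with 2 arrays a group, and called at a Benjamini-Hochberg adjusted p under 0.05. Of the 100 member probe sets, 91 probe sets of 54 genes were bright enough to be tested. The count of members past the threshold was 0 in the forebrain, where 0.017% of all tested probe sets passed, 0 in the hindbrain, where 0.017% passed, and 0 over both regions, where 0.034% passed. The smallest adjusted p of a member was 0.404 in the forebrain, 0.575 in the hindbrain and 0.0646 over both regions, each time for a Supt5h probe set, together with a Sfpq probe set in the hindbrain.

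At an unadjusted p under 0.05, 5 members (5.49%) stood out in the forebrain against 2.92% of all tested probe sets, 9 (9.89%) in the hindbrain against 4.49%, and 11 (12.1%) over both regions against 5.02%. The 11 belonged to 8 genes, and 9 of them were higher in Pax6 homozygous embryos, where the background in that direction was 2.92%, and 2 lower (background 2.09%). In the forebrain 3 members were higher (background 1.62%) and 2 lower (1.31%), and in the hindbrain 8 were higher (2.6%) and 1 lower (1.89%). A log2 difference above 0 was found in 52 of the 91 members (57.1%) in the forebrain, beside 51.2% of all tested probe sets, in 52 (57.1%) in the hindbrain, beside 54.3%, and in 51 (56.0%) over both regions, beside 54.3%, so the share above 0 was near that of the array. The counts at an unadjusted p depended on the processing and on single arrays, and the share of all tested probe sets moved as well. Over the alternatives that kept both arrays of each group compared, they ran from 1 to 9 members in the forebrain. In the hindbrain they ran from 4 to 15, and over both regions from 5 to 13. With the replicate block, 9.89% of members stood out in the forebrain beside 5.59% of all tested probe sets. In the hindbrain 16.5% did with that block, beside 9.13%. Without the intensity trend, 1.1% of members stood out in the forebrain beside 2.87% of all tested probe sets, 5.49% in the hindbrain beside 4.47% and 5.49% over both regions beside 4.71%. Without wild-type forebrain replicate 1 the forebrain had 14 members higher and 2 lower, and without Pax6 homozygous forebrain replicate 1 it had 1 higher and 5 lower. Without Pax6 homozygous hindbrain replicate 1 the hindbrain had 3 higher and 6 lower. The members' median log2 difference was nonetheless small: 0.07 in the forebrain beside 0.01 for all tested probe sets, 0.04 in the hindbrain beside 0.04, and 0.08 over both regions beside 0.03. In 6 member probe sets (6.59%, background 2.38%) all 4 Pax6 homozygous arrays lay above all 4 wild-type arrays: Ddx46, Srsf5, and 2 each of Eif4a2 and Hnrnpa2b1. In 3 (3.3%, background 1.19%) all 4 lay below: a probe set each of Supt5h, Hnrnpa1 and Eif4ebp1. Within the forebrain, both Pax6 homozygous arrays lay above both wild-type arrays in 18 members (19.8%, background 12.4%) and below them in 11 (12.1%, background 10.4%). Within the hindbrain they lay above in 27 (29.7%, background 20.0%) and below in 13 (14.3%, background 14.4%). They lay above in each region in 8 members (8.79%, background 4.56%) and below in each in 4 (4.4%, background 2.91%). The comparison over both regions uses the same arrays as those of the single regions.

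**Figure D1:**
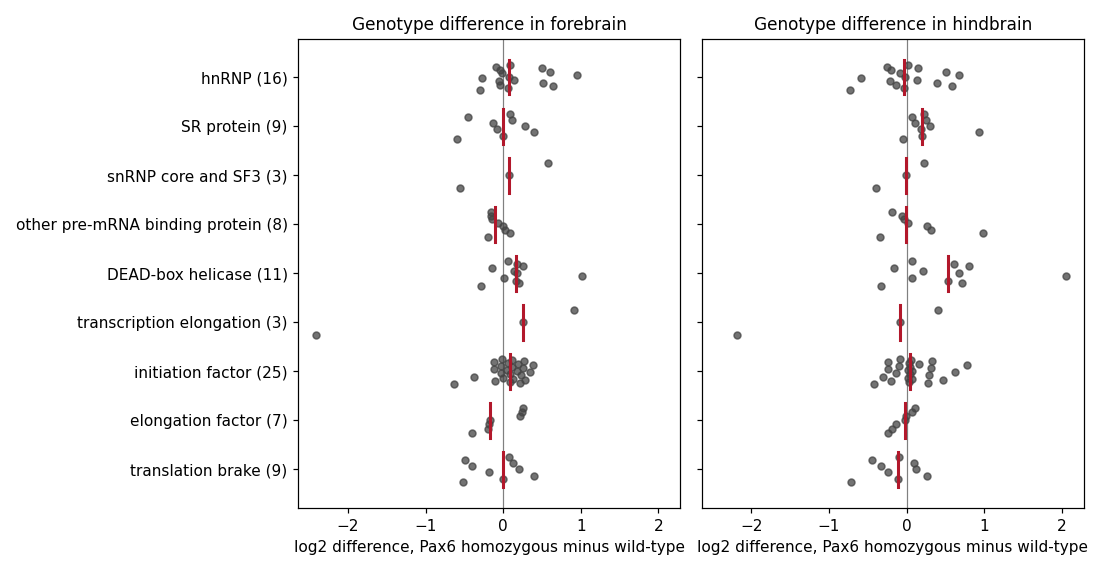
Log2 difference of the 91 tested member probe sets, Pax6 homozygous minus wild-type, in the forebrain (left) and the hindbrain (right), by role with the number of probe sets tested. Each point is a probe set and each red bar the median of its role; most points lie within 1 log2 unit of 0. A Supt5h probe set stands at -2.41 in the forebrain and -2.18 in the hindbrain, and a dim Ddx39b probe set at 2.06 in the hindbrain.

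Supt5h encodes the larger subunit of DSIF, which holds RNA polymerase II in its promoter-proximal pause and then travels with it as an elongation factor. The array carries 3 probe sets for it, and they did not behave alike. Probe set rc_AA858586_at read 226 and 303 in Pax6 homozygous forebrain against 1491 and 1305 in wild-type forebrain. In the hindbrain it read 234 and 364 in Pax6 homozygous embryos against 1277 and 1373 in wild-type embryos. All 4 Pax6 homozygous arrays were below all 4 wild-type arrays, with means of 282 ± 65 and 1362 ± 95 (SD, n = 4 each), and 1 of the 2 Pax6 homozygous arrays in each region was above the noise level. The log2 difference was -2.41 ± 0.41 (SE) in the forebrain (adjusted p = 0.404), -2.18 ± 0.41 in the hindbrain (adjusted p = 0.575) and -2.30 ± 0.29 over both regions (limma, unadjusted p = 3.29e-05, adjusted p = 0.0646). Since 2 of the 4 Pax6 homozygous readings are below noise, the size of the difference is rough and no fold is given. With the replicate number of the titles as a block, the adjusted p over both regions was 0.0296, and with the arrays scaled to a common 75th percentile it was 0.0440. Leaving out each array in turn gave adjusted p values of 0.168 to 0.290.

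The other Supt5h probe sets were brighter, and over both regions their differences were above 0. Probe set L41685mRNA_at read 4182 and 6289 in Pax6 homozygous forebrain against 4806 and 3835 in wild-type forebrain, and 6825 and 7312 in Pax6 homozygous hindbrain against 4099 and 6991 in wild-type hindbrain, with a log2 difference over both regions of 0.33 ± 0.21 (SE). Probe set rc_AA892053_at read 4950 and 7047 in Pax6 homozygous forebrain against 4482 and 2211 in wild-type forebrain, a log2 difference of 0.91 ± 0.35 (unadjusted p = 0.0285, adjusted p = 1.0), and 4529 and 4959 in Pax6 homozygous hindbrain against 4254 and 5988 in wild-type hindbrain, a log2 difference of -0.09 ± 0.35. Without wild-type forebrain replicate 2, which read 2211 and has the highest actin 3′ to 5′ ratio, the forebrain difference was 0.40. The part of that ratio in the value was not tested. Over the 8 arrays these probe sets correlated with each other at r = 0.64 and with rc_AA858586_at at -0.36 and -0.40. The mean of all 3 probe sets had a log2 difference of -0.52 over both regions (adjusted p = 0.913). A difference of the size seen in the first probe set was thus not seen in the others. Sequences of the probes were not used here.

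**Figure D2:**
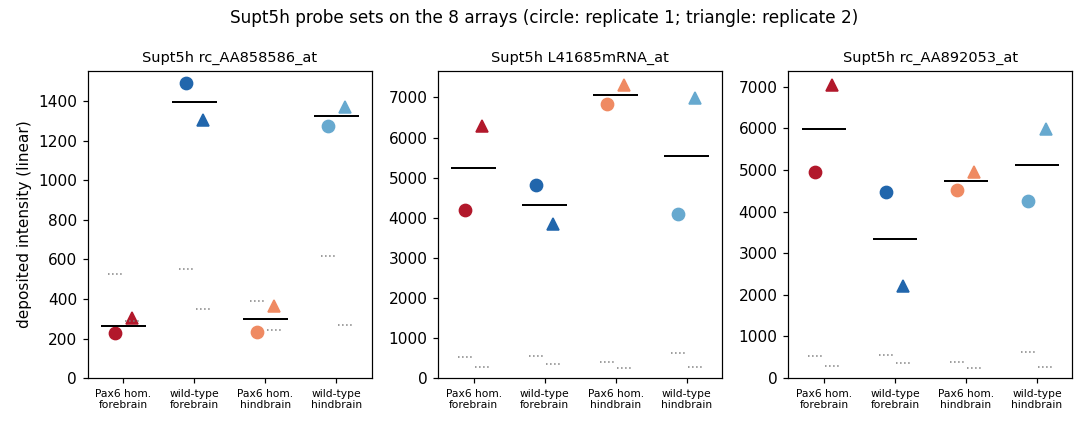
Deposited intensity (linear, from 0) of the 3 Supt5h probe sets on each array, with circles for replicate 1, triangles for replicate 2, black bars for group means and dotted lines for each array's noise level. In rc_AA858586_at the 4 Pax6 homozygous arrays lie between 226 and 364 and the 4 wild-type arrays between 1277 and 1491, while the other 2 probe sets overlap between genotypes.

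Sfpq, a paraspeckle protein that takes part in splicing and in keeping long neuronal genes transcribed, had the smallest p of any member for a higher level in Pax6 homozygous embryos in a single region. Its probe set AF036335_at read 13079 and 11545 in Pax6 homozygous hindbrain against 6302 and 6106 in wild-type hindbrain, and the groups do not overlap. In the forebrain it read 14436 and 13678 in Pax6 homozygous embryos against 16568 and 11485 in wild-type embryos, which overlap. The log2 difference was 0.99 ± 0.19 in the hindbrain (unadjusted p = 0.000717, adjusted p = 0.575) and 0.03 ± 0.19 in the forebrain. The test of the difference between the regions gave -0.96 ± 0.27 (unadjusted p = 0.00694, adjusted p = 0.9995). The second probe set on the same transcript, AF036335_g_at, read 12390 and 5371 in Pax6 homozygous hindbrain against 6281 and 11180 in wild-type hindbrain, a log2 difference of -0.04 ± 0.40. The hindbrain pattern of the first was thus not seen in the second, and the probe sets correlated at r = 0.48 over the 8 arrays.

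Among the hnRNPs, which coat nascent RNA and mostly act as splicing repressors, Hnrnpa2b1 had the smallest p between genotypes. This protein also binds sequences that direct mRNAs into cell processes. Probe set rc_AA799511_at read 13165 and 13386 in Pax6 homozygous forebrain against 10576 and 4452 in wild-type forebrain, and 10862 and 13752 in Pax6 homozygous hindbrain against 6059 and 9659 in wild-type hindbrain. Its partner rc_AA799511_g_at read 25756 and 24878 in Pax6 homozygous forebrain against 21767 and 14503 in wild-type forebrain and 25719 and 22911 in Pax6 homozygous hindbrain against 18252 and 18605 in wild-type hindbrain. In both, all 4 Pax6 homozygous arrays were the brighter ones. The log2 differences over both regions were 0.81 ± 0.27 (unadjusted p = 0.0146, adjusted p = 0.928) and 0.45 ± 0.13 (unadjusted p = 0.00844, adjusted p = 0.801). Without wild-type forebrain replicate 2 they were 0.50 and 0.31. A further probe set from another clone, rc_AA799523_g_at, read 21247 and 14936 in Pax6 homozygous forebrain against 22862 and 15879 in wild-type forebrain and 19057 and 10711 in Pax6 homozygous hindbrain against 17996 and 15252 in wild-type hindbrain, with a log2 difference of -0.16 ± 0.21.

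Hnrnpa1, a repressor that binds at exonic and intronic silencers, had 4 probe sets whose differences over both regions ran from -0.28 to 0.62 on the log2 scale. Probe set rc_AA965147_at read 25412 and 27864 in Pax6 homozygous forebrain against 34945 and 30476 in wild-type forebrain, and 28452 and 26996 in Pax6 homozygous hindbrain against 36358 and 30255 in wild-type hindbrain. All 4 Pax6 homozygous arrays were lower, with a log2 difference of -0.28 ± 0.10 (unadjusted p = 0.0229, adjusted p = 0.928). Probe set rc_AA799893_at differed by 0.62 ± 0.25 (unadjusted p = 0.0374) and its partner rc_AA799893_g_at by 0.23 ± 0.19, while M12156_at stood at -0.03 ± 0.15. Hnrnpu, a scaffold of nuclear RNA and chromatin, had log2 differences in the hindbrain of -0.58 ± 0.29 and -0.73 ± 0.42 in its 2 probe sets. In the second, D14048_g_at, Pax6 homozygous hindbrain read 16249 and 5412 against 17413 and 13912 in wild-type hindbrain, and without Pax6 homozygous hindbrain replicate 2 the log2 difference was 0.06. The first, D14048_at, stood at -0.09 without the same array, so both values rest on it. The other 6 hnRNP genes with tested probe sets, Hnrnpa3, Hnrnpab, Hnrnpc, Hnrnpd, Hnrnpf and Hnrnpm, lay between -0.13 and 0.50 over both regions. Of the 16 hnRNP probe sets tested, 7 were above 0 over both regions, beside 54.3% of all tested probe sets, with a median of -0.02.

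The SR proteins and their relatives, which recruit the spliceosome to exons, were 8 of 9 above 0 in the hindbrain, beside 54.3% of all tested probe sets, with a median log2 difference of 0.20. In the forebrain 4 of 9 were above 0, beside 51.2%, with a median of -0.004. The 9 probe sets belong to 5 genes, with 4 of Tra2b and 2 of Srsf2, so they are not independent of each other. None of the 9 reached an unadjusted p under 0.05 in either region, beside 2.92% of all in the forebrain and 4.49% in the hindbrain. Srsf5 read 15924 and 16296 in Pax6 homozygous forebrain against 13082 and 13380 in wild-type forebrain, and 15336 and 15024 in Pax6 homozygous hindbrain against 14397 and 12428 in wild-type hindbrain. Its arrays do not overlap between genotypes, and the log2 difference over both regions was 0.23 ± 0.10 (unadjusted p = 0.0427, adjusted p = 0.928). Tra2b, which binds purine-rich exonic enhancers, had 4 probe sets between -0.32 and 0.25. In the spliceosome itself, Snrpb, a core Sm protein of the snRNPs, read 21805 and 9755 in Pax6 homozygous forebrain against 21447 and 21595 in wild-type forebrain; its log2 difference was -0.56 ± 0.31, and 0.02 without Pax6 homozygous forebrain replicate 2. Sf3b1, the branch-point protein of the U2 snRNP, read 326 to 711 in Pax6 homozygous embryos and 450 to 802 in wild-type embryos, close to the noise level, and its log2 difference over both regions was -0.16 ± 0.40. Snrpd3, also an Sm protein, stood at 0.40 ± 0.33.

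DEAD-box helicases had the highest median of any role in the hindbrain, 0.53 on the log2 scale over 11 probe sets of 7 genes. Of these probe sets 9 were above 0, beside 54.3% of all tested probe sets. The median in the forebrain was 0.17. Ddx39b gave 4 of the 11 probe sets and Ddx46 gave 2, so the 11 are not independent of each other. The hindbrain median is itself the value of a Ddx39b probe set. Of the 11, 4 reached an unadjusted p under 0.05 in the hindbrain, beside 4.49% of all. Of those 4, 2 are Ddx39b probe sets of the same sequence record. None did in the forebrain, beside 2.92% of all, and none passed after adjustment. Ddx39b, the helicase that loads spliceosomes at the branch point and couples splicing to export, read 30022 and 30878 in Pax6 homozygous hindbrain against 20943 and 21183 in wild-type hindbrain in probe set rc_AA892014_s_at, a log2 difference of 0.53 ± 0.17 (unadjusted p = 0.0125, adjusted p = 0.989). The dimmer rc_AA892014_r_at read 2180 and 1974 in Pax6 homozygous hindbrain against 1320 and 1077 in wild-type hindbrain, a log2 difference of 0.80 ± 0.30, but the full-length M75168_at read 22324 and 21771 in Pax6 homozygous hindbrain against 21610 and 20593 in wild-type hindbrain, a difference of 0.06 ± 0.13. The fourth, rc_AA892014_i_at, read 654 and 529 in Pax6 homozygous hindbrain against 437 and -38.4 in wild-type hindbrain, where neither array was above the noise level. Its log2 difference of 2.06 ± 1.03 rests on a negative reading set to the floor. All 4 were above 0 in the hindbrain, by amounts that differ widely. Ddx21, which unwinds RNA in the nucleolus, read 6077 and 5983 in Pax6 homozygous hindbrain against 2990 and 4812 in wild-type hindbrain (0.67 ± 0.24, unadjusted p = 0.0222, and 0.33 without wild-type hindbrain replicate 1), while its neighbour on chromosome 20, Ddx50, read 6392 and 2871 in Pax6 homozygous hindbrain against 5416 and 5354 in wild-type hindbrain (-0.33 ± 0.32). Ddx42, a helicase of the U2 snRNP, stood at 0.82 ± 0.35 over both regions (unadjusted p = 0.0465), with 1113 to 1974 in Pax6 homozygous embryos and 504 to 1153 in wild-type embryos.

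Initiation factors were the largest role, with 25 probe sets of 17 genes, all of them tested, and a median log2 difference of 0.09 in the forebrain and 0.04 in the hindbrain. Eif4a2, a DEAD-box helicase of the cap-binding complex eIF4F, was the member with the smallest p for a higher level over both regions. Its probe set U64705cds_i_at read 16567 and 13388 in Pax6 homozygous forebrain against 10985 and 12400 in wild-type forebrain, and 16211 and 16988 in Pax6 homozygous hindbrain against 9757 and 11903 in wild-type hindbrain. The probe set U64705cds_f_at read 16832 and 12034 in Pax6 homozygous forebrain against 10695 and 11117 in wild-type forebrain and 13962 and 14396 in Pax6 homozygous hindbrain against 11487 and 11116 in wild-type hindbrain. In both, every Pax6 homozygous array was above every wild-type array, by 0.49 ± 0.12 (unadjusted p = 0.00328, adjusted p = 0.801) and 0.36 ± 0.13 (unadjusted p = 0.0204, adjusted p = 0.928) on the log2 scale. Both come from the same transcript record, so they are not independent of each other.

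**Figure D3:**
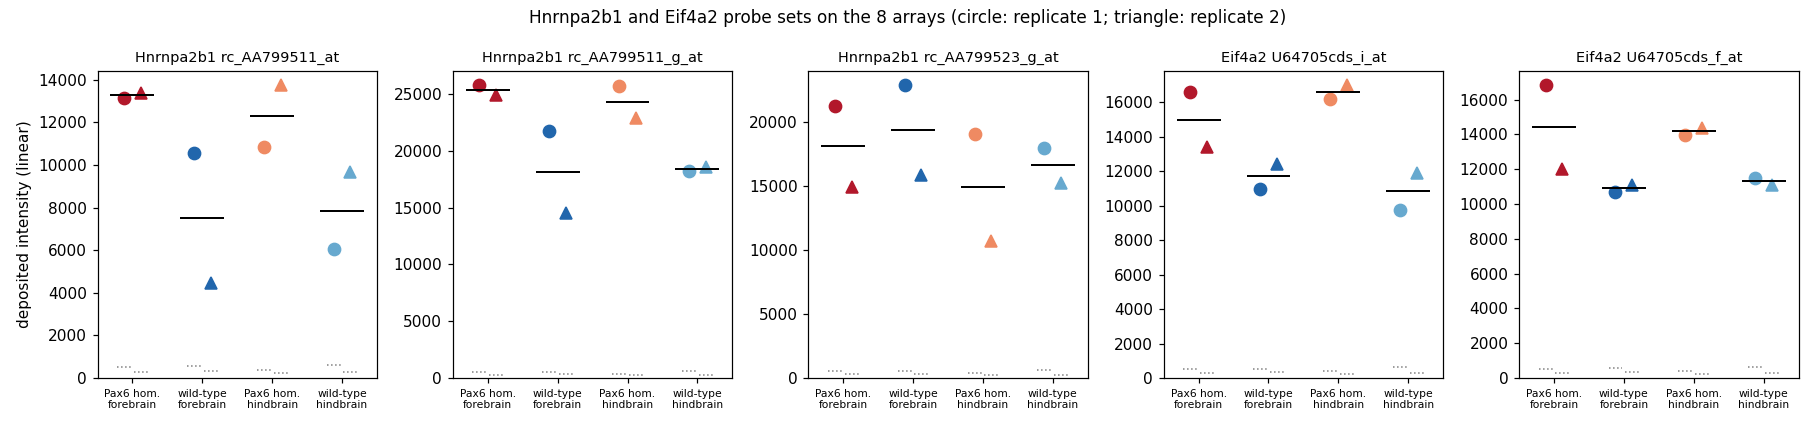
Deposited intensity (linear, from 0) of the 3 tested Hnrnpa2b1 probe sets and the 2 Eif4a2 probe sets on each array, with circles for replicate 1, triangles for replicate 2, black bars for group means and dotted lines for noise levels. The Pax6 homozygous arrays lie above the wild-type arrays in 4 of the 5 panels and overlap them in Hnrnpa2b1 rc_AA799523_g_at.

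Eif4e, the cap-binding subunit of the same complex, read 8356 and 8901 in Pax6 homozygous hindbrain against 5643 and 6909 in wild-type hindbrain, a log2 difference of 0.47 ± 0.18 (unadjusted p = 0.0271, adjusted p = 0.989), and 9132 and 8125 in Pax6 homozygous forebrain against 7622 and 8609 in wild-type forebrain. Its relative Eif4e2, which binds the cap but represses initiation, read 10284 and 5695 in Pax6 homozygous forebrain against 10453 and 13553 in wild-type forebrain (-0.64 ± 0.27, unadjusted p = 0.0433). That difference rests largely on 1 array: without Pax6 homozygous forebrain replicate 2 it was -0.21. The 5 subunits of eIF2B, the exchange factor that recharges eIF2 with GTP, are all on the array in 8 probe sets. Over both regions they lay between -0.16 and 0.33. In the hindbrain the Eif2b3 probe set rc_AI639441_at read 4797 and 5252 in Pax6 homozygous embryos against 2097 and 4103 in wild-type embryos. Its log2 difference there was 0.78, with an unadjusted p under 0.05, and it did not pass after adjustment. The lowest of the 3 Eif2b3 probe sets there was 0.28. The subunits of eIF2 itself, Eif2s1 and Eif2s3, stood at -0.03 ± 0.13 and 0.12 ± 0.18, and the eIF3 subunits Eif3b, Eif3d and Eif3m between -0.04 and 0.13. Eif4h, a cofactor of the eIF4A helicase, is taken up with the regions below. Eif2d, Eif5 and Eif5b lay between -0.15 and 0.20.

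Of the 7 tested probe sets of elongation factors, whose start windows are shown above, 3 lay above 0 in the forebrain, beside 51.2% of all. Those 3 are all Eef2 probe sets, which correlated with each other at r = 0.95 to 0.99. In each of them wild-type forebrain replicate 2 was the lowest array. In the hindbrain 2 of the 7 lay above 0, beside 54.3% of all. The medians were -0.18 in the forebrain and -0.03 in the hindbrain. The pyrimidine run reached the annotated start in the Eef1a1 window alone of the 4. Eef1a1, which brings aminoacyl-tRNA to the ribosome, read 48746 and 51691 in Pax6 homozygous forebrain against 56786 and 57244 in wild-type forebrain in probe set M81088_at, and 50373 and 47148 in Pax6 homozygous hindbrain against 46860 and 51228 in wild-type hindbrain. The forebrain groups do not overlap and the hindbrain groups do, with log2 differences of -0.18 ± 0.11 and -0.01 ± 0.11. Eef1g, a subunit of the exchange factor for eEF1A, read 36279 and 41994 in Pax6 homozygous forebrain against 46398 and 42829 in wild-type forebrain and 38983 and 36418 in Pax6 homozygous hindbrain against 47238 and 39359 in wild-type hindbrain, lower in Pax6 homozygous embryos in each region, by -0.19 ± 0.10 over both (unadjusted p = 0.0803). Eef2, the translocase, had its brightest probe set rc_AI178750_at at -0.16 ± 0.11 and the other 3 between 0.10 and 0.18. The 62 tested probe sets of cytoplasmic ribosomal proteins, whose mRNAs are also known for pyrimidine starts, had a median of -0.07 in the forebrain, -0.11 in the hindbrain and -0.10 over both regions, and those of the proteasome -0.01, -0.05 and -0.02. None of the tested probe sets of either family was called between genotypes. Of all tested probe sets 0.017% were called in each region and 0.034% over both.

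Brakes on translation comprise the kinases Eif2ak1, Eif2ak2 and Eif2ak3, which phosphorylate eIF2 under haem shortage, double-stranded RNA and unfolded protein in the endoplasmic reticulum, the kinase Eef2k, which inactivates eEF2, and Eif4ebp1, which sequesters eIF4E. Their 9 tested probe sets lay between -0.41 and 0.15 over both regions with a median of -0.21. Eif4ebp1 had 3 probe sets, of which rc_AI178828_i_at read 2009 and 1950 in Pax6 homozygous forebrain against 2156 and 2334 in wild-type forebrain and 1795 and 1707 in Pax6 homozygous hindbrain against 2067 and 2082 in wild-type hindbrain. All 4 Pax6 homozygous arrays were lower there (-0.21 ± 0.16), while the other 2 probe sets stood at 0.12 ± 0.13 and 0.10 ± 0.15. Eif2ak3, also called PERK, had its largest difference in the hindbrain in AF096835_g_at, where Pax6 homozygous embryos read 852 and 411 against 925 and 1031 in wild-type embryos (-0.72 ± 0.43). No probe set of these genes reached an unadjusted p under 0.05 in either region or over both. Of all tested probe sets 2.92% did in the forebrain, 4.49% in the hindbrain and 5.02% over both, so none among 9 is near that share.

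The remaining members were without an unadjusted p under 0.05 over both regions, beside 5.02% of all tested probe sets. Ptbp1, the repressor of neuronal exons in progenitors, had 3 tested probe sets between -0.07 and 0.18, and Khdrbs1, a signal-responsive splicing regulator also called Sam68, stood at -0.17 ± 0.19. Ddx3x and Ddx46 were at 0.12 ± 0.14 and, in 2 probe sets, 0.23 ± 0.15 and 0.36 ± 0.19. In the second of these, U25746_g_at, Ddx46 read 5368 and 4570 in Pax6 homozygous hindbrain against 2747 and 3342 in wild-type hindbrain, a log2 difference of 0.71 ± 0.27 (unadjusted p = 0.0302, adjusted p = 0.989), beside 0.02 ± 0.27 in the forebrain. The 9 probe sets too dim to test were those of Ddx4, a germ-cell helicase, Pabpc4, a poly(A)-binding protein, and Eef1a2, the adult neuron and muscle form of eEF1A, and a dim probe set each of Srsf2, Srsf5, Hnrnpa2b1, Hnrnpc, Ptbp1 and Eif2ak2, genes that had another probe set in the test. Of the Ddx4, Pabpc4 and Eef1a2 probe sets nothing can be said of genotype or region.

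How well the members could be measured differed from the array as a whole. The size of the log2 gap between the 2 arrays of a group had a median over the members of 0.23 in Pax6 homozygous forebrain, 0.33 in wild-type forebrain, 0.19 in Pax6 homozygous hindbrain and 0.22 in wild-type hindbrain. Over all tested probe sets it was 0.36 in Pax6 homozygous forebrain, 0.43 in wild-type forebrain, 0.30 in Pax6 homozygous hindbrain and 0.40 in wild-type hindbrain. The members were also brighter, with a median log2 intensity of 12.9 to 13.3 per array against 10.2 to 10.6 for all tested probe sets. Agreement between probe sets of 1 gene was the weaker point. Of 23 genes with 2 or more tested probe sets, 7 had all of them on the same side of 0 in the forebrain, 13 in the hindbrain and 10 over both regions. The median range within a gene was 0.25 on the log2 scale over both regions, and the widest, for Supt5h, was 2.71. Over the 8 arrays, 18 pairs of probe sets from the same sequence record correlated with a median r of 0.72, and 37 pairs from different records with a median r of 0.14, of which 15 were below 0; these are descriptions over arrays that share groups.

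**Figure D4:**
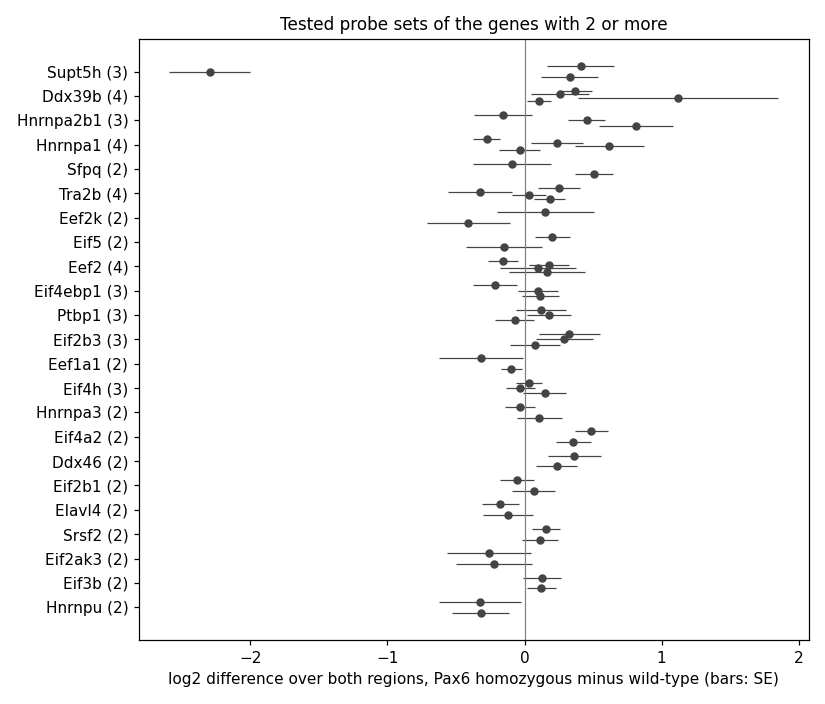
Log2 difference over both regions, Pax6 homozygous minus wild-type, with its SE, for each tested probe set of the 23 genes with 2 or more, ordered by the range within the gene and with the number of probe sets. The widest range is 2.71 for Supt5h, and 10 of the 23 genes have all probe sets on the same side of 0.

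Whether the genotype difference itself depends on the region was tested as an interaction, forebrain minus hindbrain. No member passed (0 of 91, background 0.0%), and 4 (4.4%) had an unadjusted p under 0.05 against 1.9% of all tested probe sets. The interaction was positive in 1 of these 4 (background 0.714%) and negative in 3 (background 1.19%), and over all members it was above 0 in 47 (51.6%), beside 48.0% of all tested probe sets. Besides Sfpq AF036335_at these were Ddx21 (-0.81, unadjusted p = 0.0412), Ddx39b rc_AA892014_r_at (-1.08, unadjusted p = 0.0333) and Eif4h rc_AI180108_at (0.46, unadjusted p = 0.0408). Eif4h read 18411 and 17382 in Pax6 homozygous forebrain against 15748 and 14144 in wild-type forebrain, and 15197 and 14731 in Pax6 homozygous hindbrain against 17943 and 16482 in wild-type hindbrain. Its groups are apart in both regions and in opposite directions. Another Eif4h probe set from a different sequence record, rc_AA875327_g_at, showed the same order. It read 24746 and 22187 in Pax6 homozygous forebrain against 21548 and 19696 in wild-type forebrain. In the hindbrain it read 19470 and 21014 in Pax6 homozygous embryos against 26515 and 21706 in wild-type embryos. Its interaction was 0.43 (unadjusted p = 0.0701). The third, rc_AA875327_at, from the same record as rc_AA875327_g_at, stood at 0.26. The members' median interaction was 0.00 beside -0.02 for all.

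Between the regions, forebrain minus hindbrain over both genotypes, no member passed in the main fit either, though 1.51% of all tested probe sets did. At an unadjusted p under 0.05 there were 5 members (5.49%), beside 8.09% of all tested probe sets, and the median log2 difference was 0.03 against -0.02. Of these, 3 were higher in forebrain (background 2.72%) and 2 lower (background 5.37%), and 54 of the 91 members (59.3%) were above 0, beside 46.8%. The lean is not particular to the members: the median was 0.07 for cytoplasmic ribosomal proteins and 0.09 for the proteasome. The smallest adjusted p values of members were 0.0560 for Sfpq and 0.0588 for Elavl4. Sfpq AF036335_at averaged 14042 ± 2098 in forebrain and 9258 ± 3582 in hindbrain (SD, n = 4 each), a log2 difference of 0.67 ± 0.14. With the replicate block its adjusted p was 0.0194, with arrays scaled to the 75th percentile 0.0230, and without wild-type forebrain replicate 2 it was 0.0170. The arrays overlap, because the Pax6 homozygous hindbrain arrays, at 13079 and 11545, reach the forebrain range of 11485 to 16568. AF036335_g_at stood at 0.57 ± 0.28 (adjusted p = 0.683).

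Elavl4, also called HuD, is a neuronal protein that binds AU-rich elements and stabilises mRNAs such as that of Gap43. Its probe set S83320_g_at read 4847 and 5100 in Pax6 homozygous forebrain and 4550 and 5480 in wild-type forebrain, against 7392 and 6500 in Pax6 homozygous hindbrain and 8028 and 9680 in wild-type hindbrain. Probe set S83320_at read 1280 and 1636 in Pax6 homozygous forebrain and 1443 and 1890 in wild-type forebrain, against 2365 and 2640 in Pax6 homozygous hindbrain and 2595 and 2591 in wild-type hindbrain. Every forebrain array was below every hindbrain array in both probe sets, with log2 differences of -0.65 ± 0.13 (adjusted p = 0.0588) and -0.72 ± 0.18 (adjusted p = 0.140). With the replicate block the adjusted p values were 0.0313 and 0.0450. Markers of neurons differed the same way: of 23 tested probe sets of 13 genes, 5 passed as lower in forebrain and none as higher, with a median of -0.62. Their summed intensity, with negative values set to 0, was 71034 to 75462 on the forebrain arrays and 117154 to 155974 on the hindbrain arrays. Muscle markers were lower in forebrain as well, with sums of 3152 to 6468 against 30497 to 37422 in hindbrain. Of the 21 tested progenitor probe sets 16 were below 0 in forebrain against hindbrain, with a median of -0.28 and 1 passing as lower. Of the 23 tested mesenchyme probe sets 18 were below 0, with a median of -0.25, and 2 passed as higher and 1 as lower. In pieces of tissue, fewer neurons and less mRNA in each neuron cannot be told apart, and the part of neuron content in the Elavl4 difference was not tested.

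**Figure D5:**
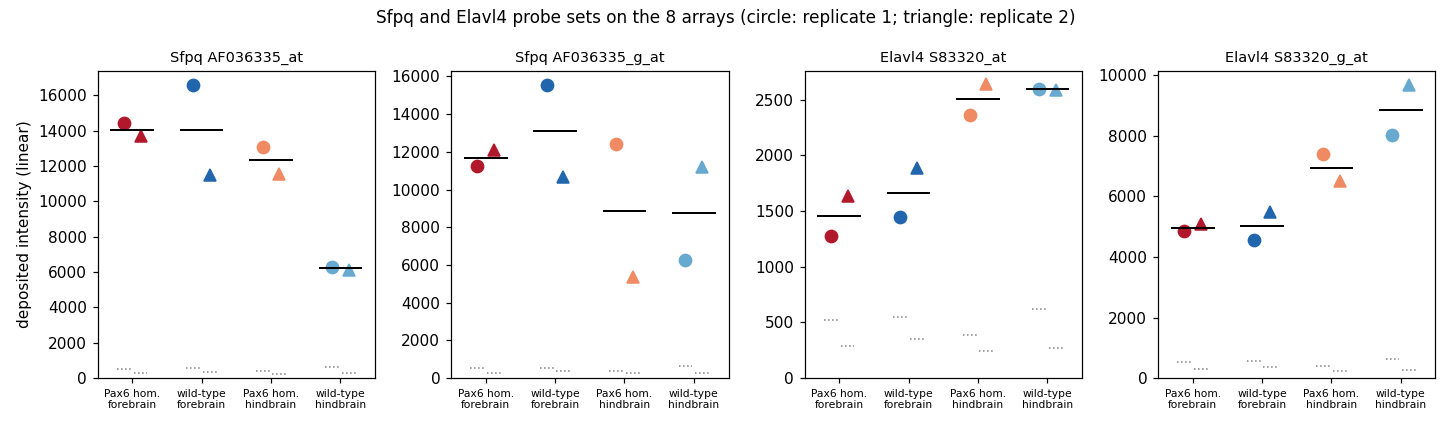
Deposited intensity (linear, from 0) of the 2 Sfpq and 2 Elavl4 probe sets on each array, with circles for replicate 1, triangles for replicate 2, black bars for group means and dotted lines for noise levels. Sfpq AF036335_at is lowest on the 2 wild-type hindbrain arrays (6302 and 6106), and both Elavl4 probe sets are lower on the 4 forebrain arrays than on the 4 hindbrain arrays.

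Other members differed less between the regions. All forebrain arrays were above all hindbrain arrays for Hnrnpc rc_AA799995_g_at (0.37 ± 0.13, adjusted p = 0.385) and Eif2b4 (0.23 ± 0.13), which are 2 of 91 members (2.2%, background 2.23%). The opposite order held for both Elavl4 probe sets and Eef2 rc_AA963674_at (-0.32 ± 0.15), which are 3 of 91 (3.3%, background 4.37%). Eef2 rc_AA963674_at read 17278 and 20266 in Pax6 homozygous forebrain and 19909 and 12466 in wild-type forebrain, against 22315 and 22060 in Pax6 homozygous hindbrain and 20281 and 20908 in wild-type hindbrain, and wild-type forebrain replicate 2 was the lowest of all. The same array was the lowest for rc_AA892801_at, at 3736, and rc_AA892801_g_at, at 4690. It is also the array with the highest actin 3′ to 5′ ratio, and the part of this in the Eef2 values was not tested. Eif3d, an eIF3 subunit that can itself bind caps, stood at 0.36 ± 0.15 (unadjusted p = 0.0429), Hnrnpa1 rc_AA799893_g_at at 0.43 ± 0.19, and Ddx39a, a close relative of Ddx39b, at 0.26 ± 0.13.

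The rest of the RNA machinery on the array was counted in lists that leave out the members. Other splicing and RNA-binding proteins (20 genes, 29 tested probe sets), factors of mRNA 3′ ends, export and decay (13 genes, 15 probe sets), elongation factors and subunits of RNA polymerase II (12 genes, 14 probe sets) and other translation factors, tRNA synthetases and nucleolar proteins (11 genes, 16 probe sets) had no call in any comparison of genotypes or regions. Of all tested probe sets 0.017% were called between genotypes in each region, 0.034% over both regions and 1.51% between the regions. The lists' median log2 differences over both regions between genotypes were 0.05, 0.10, 0.01 and 0.02. At an unadjusted p under 0.05 over both regions, Ssb X67859_at (0.42) and Rbm39 rc_AA800126_at (0.46) were higher in Pax6 homozygous embryos. Dkc1 rc_AA892562_g_at (-0.44) and Polr2a X59608exon_at (-1.13) were lower. Of all tested probe sets 5.02% reached that p. Ssb, the La protein that binds the 3′ ends of nascent small RNAs, read 6985 and 7298 in Pax6 homozygous hindbrain against 3863 and 4396 in wild-type hindbrain in probe set X67859_at (0.79 ± 0.24, unadjusted p = 0.00877, adjusted p = 0.989). The polymerase and elongation list lay above 0 in forebrain against hindbrain in 14 of 14 probe sets, with a median of 0.15 and none called, where 46.8% of all tested probe sets were above 0. Between genotypes the same list had 7 probe sets above 0 and 7 below over both regions.

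Summed intensities of cell type markers are given by genotype, since they bear on the tissue each RNA came from. Of the tested probe sets of these lists, Fabp7 alone passed between genotypes. The summed intensity of the 8 blood probe sets was 155676 and 158156 in Pax6 homozygous forebrain against 186770 and 201727 in wild-type forebrain, and 150786 and 152011 in Pax6 homozygous hindbrain against 173282 and 164894 in wild-type hindbrain. That of the 21 progenitor probe sets was 134519 and 116758 in Pax6 homozygous forebrain against 147997 and 154366 in wild-type forebrain and 147946 and 149098 in Pax6 homozygous hindbrain against 184073 and 167968 in wild-type hindbrain. That of the 19 lens probe sets was 5350 and 4004 in Pax6 homozygous forebrain against 10895 and 12106 in wild-type forebrain, with 6732 and 5208 in Pax6 homozygous hindbrain against 6885 and 3644 in wild-type hindbrain. That of the 28 neuron probe sets was 73309 and 71034 in Pax6 homozygous forebrain against 75462 and 73064 in wild-type forebrain and 117154 and 120018 in Pax6 homozygous hindbrain against 147141 and 155974 in wild-type hindbrain. In all of these except the lens sums in the hindbrain and the neuron sums in the forebrain, both Pax6 homozygous arrays were lower than both wild-type arrays of the region. The median log2 difference of the 23 tested neuron probe sets was 0.25 in the forebrain, where the sums overlap, and -0.24 in the hindbrain. Sums of muscle markers overlapped between genotypes in each region. Those of mesenchyme markers overlapped in the forebrain and were 157856 and 138342 in Pax6 homozygous hindbrain against 167790 and 159345 in wild-type hindbrain. Those of macrophage markers, of whose 16 probe sets 11 to 13 a group were at or below the noise level, overlapped in the hindbrain and were 3541 and 3334 in Pax6 homozygous forebrain against 3728 and 3818 in wild-type forebrain. The part of these markers' cells in the members' genotype differences was not tested.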

How the data were processed

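Per the labels' protocols, poly(A) RNA was purified from total RNA, copied from an oligo(dT) primer with a T7 promoter, transcribed into biotin-labelled cRNA and hybridised to rat U34A arrays. The authors deposited a linear intensity for each probe set and array. Their software, algorithm and scaling: not given in the sources used here. Gene symbols came from the platform annotation, where 7018 probe sets have a single symbol, 308 several and 1473 none. Of the 57 member genes, 56 matched RefSeq (GRCr8) by Entrez identifier and none had another symbol there. From the intensities, 59 array controls were left out, values were floored at 45.9 (the pooled 25th percentile), and probe sets over 255 (the pooled 40th percentile) on 2 or more arrays were kept and taken to log2. limma 3.58.1 in R 4.3.3 fitted 4 group means (4 residual and 4.63 prior degrees of freedom) with an intensity trend, and p-values were adjusted over all probe sets tested. The code was tested on simulated data. The number of arrays limits the precision.

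The titles number the arrays of each group as first and second. Deviations of same-numbered arrays from their group means correlated at r 0.275 to 0.465 in all 6 pairs of groups, so the numbers were taken to pair the arrays. A fit with the number as a block was run beside the main one. Values given without a setting are those of the main fit, which has no block. By rule, named members were the 6 with the smallest p in each direction of a comparison (3 for the interaction), other probe sets of those genes, the member of each family with the smallest p over both regions, and Supt5h and Sfpq. Other members, named to account for all of them, were added after their values were seen. The members and lists were chosen with earlier results of these data known. Alternatives changed the floor, the filter, the scaling, the variance model, the samples in the fit and the treatment of probe sets of a gene, and left out each array in turn.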

Additional observations from a re-analysis of the deposited data

How the results depend on the processing

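Of 1000 values of 61 named results under 17 alternatives, 972 kept their direction and side of the threshold, 10 passed it and 18 changed sign. Since most adjusted p values were near 1, this says little of size: 49 of the 61 moved by over 1.5 times or changed sign under at least 1 alternative, 40 of them when 1 array was left out. With the floor at the pooled median, 1 member passed in the forebrain, 1 in the hindbrain and 1 over both regions. Of all tested probe sets 3, 15 and 10 passed there. The member was each time Supt5h rc_AA858586_at (adjusted p 0.0458, 0.0195 and 0.00498), whose low arrays then sit at the floor. Over both regions the same probe set also passed with arrays scaled to the 75th percentile (0.0440) and with the replicate block (0.0296). Of all tested probe sets 3 passed with each. Between regions, 1 member passed with that scaling (Sfpq AF036335_at, 0.0230), among 84 of all tested probe sets. Its log2 difference without wild-type forebrain replicate 2 was 0.81. With the replicate block 3 members passed, among 139 of all tested probe sets. These were Sfpq AF036335_at (0.0194), Elavl4 S83320_g_at (0.0313) and Elavl4 S83320_at (0.0450). The block changed no other call of a member. Leaving out each array gave 0 members between genotypes and for the interaction, and 0 to 1 between regions.

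The members' median log2 difference moved with 75th-percentile scaling to -0.0395 in the hindbrain, beside -0.041 for all tested probe sets. With that scaling it was 0.015 over both regions, beside -0.037, and 0.096 between regions, beside 0.044. With a mean per gene it moved to 0.018 over both regions, beside 0.030 for all genes tested. Leaving out each array gave -0.032 to 0.15 in the forebrain, 0.041 to 0.088 in the hindbrain, 0.0065 to 0.064 over both regions, -0.14 to 0.067 for the interaction and 0.0023 to 0.073 between regions; the lowest forebrain, both-region and interaction values were those without wild-type forebrain replicate 2. The 75th-percentile scaling took the share of members above 0 from 57.1% to 40.7% in the hindbrain and from 59.3% to 73.6% between regions. The share of all tested probe sets moved the same way, from 54.3% to 45.0% and from 46.8% to 56.6%. Over all alternatives, all probe sets called numbered 0 to 5 in the forebrain, 1 to 22 in the hindbrain, 1 to 19 over both regions, 0 to 13 for the interaction and 37 to 139 between regions, beside 1, 1, 2, 0 and 89 reported; the cause was not tested.

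Of the 18 sign changes, 9 came from leaving out 1 array, 8 from the mean of a gene's probe sets and 1 from the floor. With that mean, Supt5h rc_AA892053_at gave -0.42 in the forebrain, and it and L41685mRNA_at -0.52 over both regions; Hnrnpa1 rc_AA965147_at gave 0.23 in the forebrain, 0.0395 in the hindbrain and 0.13 over both; Eef2 rc_AI178750_at gave 0.071 and Sfpq AF036335_g_at 0.21 over both. Without single arrays, Snrpb gave -1.14 to 0.019 in the forebrain and -0.58 to 0.0037 over both regions, Hnrnpu D14048_g_at -1.52 to 0.062 in the hindbrain, Sfpq AF036335_g_at -0.39 to 0.21 and Sf3b1 -0.42 to 0.091 over both; Sf3b1 gave 0.046 with the floor at the median. Signal over noise limits 4 tested members that were above the noise level on fewer than 8 arrays: Supt5h rc_AA858586_at (6 arrays), Ddx39b rc_AA892014_i_at (5), Sf3b1 (7) and Srsf10 (7).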
